A study of Homo sapiens with 6 samples.

Results

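The 7 APOBEC3 genes (APOBEC3A, APOBEC3B, APOBEC3C, APOBEC3D, APOBEC3F, APOBEC3G and APOBEC3H) and 3 further genes that limit retroviruses and retroelements (SAMHD1, TRIM5 and ZC3HAV1) were examined in cell lines of atypical teratoid rhabdoid tumor (AT/RT), a malignant brain tumor of early childhood defined by loss of SMARCB1 or, rarely, SMARCA4. These 10 genes were chosen by symbol among the 36532 genes of the transcript tables, and the TPM (transcripts per 1000000 transcripts) of a gene was summed over its transcripts. TPM is scaled by transcript length, so levels of different genes can be set side by side. Total RNA of CHLA 02 (1 library), CHLA 04 (2 technical replicates), CHLA 05 (1 library) and CHLA 06 (2 technical replicates) had been sequenced with a stranded total RNA protocol. All 4 lines are established ATCC lines of this tumor, and all were grown in DMEM:F12 medium that held EGF and basic FGF at 20 ng/mL each and B-27 supplement at 2%. No line was treated, none carried SMARCB1 from a plasmid, and no control line was measured. Each line was 1 biological sample. Differences between lines therefore have no test, and the spread between technical replicates does not include the spread between cultures.

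APOBEC3 proteins are cytidine deaminases. Some of them are packaged with a retroviral or retroelement RNA and change cytosine to uracil in the single-stranded cDNA made from it. Several also block reverse transcription or LINE-1 retrotransposition without deamination. SAMHD1 hydrolyses deoxynucleoside triphosphates and so starves reverse transcription, TRIM5 binds the incoming retroviral capsid, and ZC3HAV1 (the zinc finger antiviral protein ZAP) binds CpG-rich RNA and directs its decay. Several of these genes are known to respond to interferon, and the APOBEC3 genes are known for high expression in leukocytes.

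All 7 APOBEC3 genes lie on the plus strand of chromosome 22, one after another, in the order A, B, C, D, F, G, H, within chr22:38952741-39104067 (GRCh38), a span of 151327 bp. SAMHD1 (chromosome 20), TRIM5 (chromosome 11) and ZC3HAV1 (chromosome 7) lie on the minus strand elsewhere. RefSeq promoter sequence (build GRCh38.p14) was matched for 4 of the 10 genes, APOBEC3H, SAMHD1, TRIM5 and ZC3HAV1. The 250 bases before the start of 3 of them are shown, because these genes had unlike patterns over the lines, namely almost no reads (APOBEC3H), a high level in 1 line (SAMHD1) and reads in every line (TRIM5). They are written 5′ to 3′ on the strand of the gene. The start is that of RefSeq, and it differs from the start of some transcripts counted here. The main SAMHD1 transcript begins at position 36951843 and APOBEC3H transcripts at position 39097224. Both positions lie inside the stretch shown, so part of it is transcript sequence by that annotation. In the first pair, capitals mark CpG dinucleotides, of which the APOBEC3H stretch (chr22:39096994-39097243, plus strand) held 1 and the SAMHD1 stretch (chr20:36951709-36951958, minus strand) held 14. At least as many CpG were found in 93.9% of 35116 promoter stretches of that length for APOBEC3H and in 44.8% for SAMHD1, against a median of 11.
APOBEC3H: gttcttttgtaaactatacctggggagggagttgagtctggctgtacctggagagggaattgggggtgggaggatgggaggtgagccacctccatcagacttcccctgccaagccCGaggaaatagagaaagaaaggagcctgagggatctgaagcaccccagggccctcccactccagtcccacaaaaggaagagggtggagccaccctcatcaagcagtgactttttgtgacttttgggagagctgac
SAMHD1: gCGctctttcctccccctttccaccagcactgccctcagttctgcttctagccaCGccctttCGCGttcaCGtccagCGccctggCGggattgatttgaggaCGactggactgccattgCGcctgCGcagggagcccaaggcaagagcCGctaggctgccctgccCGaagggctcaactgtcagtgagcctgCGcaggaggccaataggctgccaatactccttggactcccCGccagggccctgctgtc

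In the TRIM5 stretch (chr11:5685075-5685324, minus strand) capitals mark a match to the core of the interferon-stimulated response element, searched as GAAANNGAAA on both strands with no other motif.
TRIM5: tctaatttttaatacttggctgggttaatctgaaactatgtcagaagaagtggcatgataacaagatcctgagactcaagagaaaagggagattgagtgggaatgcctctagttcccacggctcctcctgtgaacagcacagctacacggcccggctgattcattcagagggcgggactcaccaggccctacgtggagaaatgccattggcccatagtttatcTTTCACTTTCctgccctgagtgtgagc
The match lies on the other strand, 27 bases before the start. This motif was found in 3.02% of the promoter stretches, and of the 4 matched genes TRIM5 alone held it in this window. A match describes letters and does not show that a factor binds there. The TRIM5 stretch held 5 CpG and that of ZC3HAV1 held 13.

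Between 10265899 and 20520229 reads (or read pairs) per library were recovered on transcripts, with CHLA 04 replicate 1 the shallowest. SMARCB1 transcripts were read in all 6 libraries, at 13.5 to 26.2 TPM. The authors describe the 4 lines as lacking SMARCB1 expression. These reads measure RNA and do not show whether protein is made. All 7 neural markers passed the filter on low values (a TPM of at least 1 in at least 1 library). CHLA 06 had the highest line mean in 2 of them, VIM (the highest mean of the list) and TUBB3, and CHLA 05 in 5. GFAP, with the widest range, was at 0.0379 and 0.0419 TPM in the CHLA 06 libraries and at 23.9 to 151 TPM in the others, and SOX2, with the lowest mean, was at 4.03 TPM or lower in all. Among 11 leukocyte markers, 5 had 0 reads in every library, and PTPRC (CD45, the pan-leukocyte marker) reached at most 0.224 TPM. Only CD68, a lysosomal protein of macrophages that other cells also express, passed the filter.

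APOBEC3C, APOBEC3D, APOBEC3F and APOBEC3G were read in CHLA 02 and CHLA 06 and had at most 2 reads each in CHLA 04 and CHLA 05. APOBEC3B shared this pattern in CHLA 02, CHLA 05 and CHLA 06 and was also read, at a lower level, in CHLA 04. APOBEC3A and APOBEC3H had no reads, or 2 reads, in all 6 libraries. Summed over the 7 genes, APOBEC3 RNA stood at 95.1 TPM in CHLA 02, at 2.63 and 5.67 TPM in the CHLA 04 libraries, at 0.166 TPM in CHLA 05, and at 154 and 167 TPM in the CHLA 06 libraries. The order of the lines was CHLA 06, CHLA 02, CHLA 04 and CHLA 05, and no neighbours in it overlapped. In this bulk RNA, fewer cells that express a gene and less RNA per cell cannot be told apart.

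**Figure D1:**
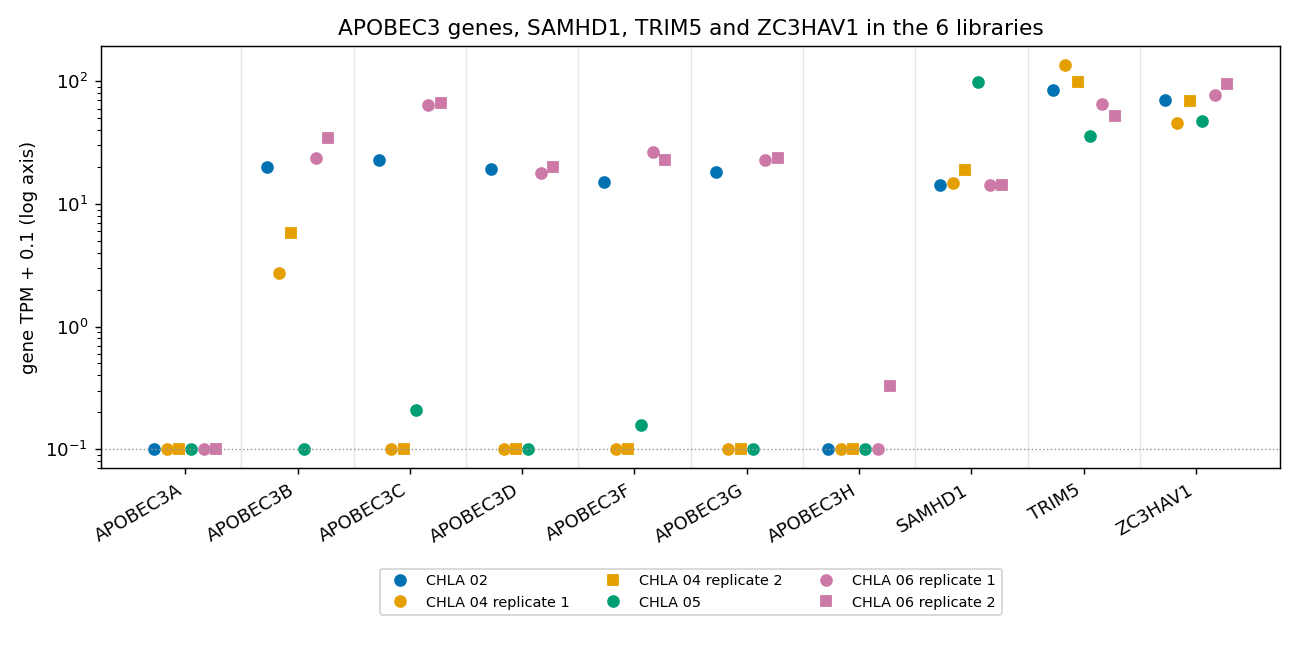
TPM of the 10 genes in the 6 libraries, plotted as TPM + 0.1 on a log axis, with 1 point per library and a colour per line (circles for single libraries and replicate 1, squares for replicate 2). Points on the dotted line had 0 reads. APOBEC3B, C, D, F and G in CHLA 02 and CHLA 06 lie between 15.03 and 66.6 TPM, whereas TRIM5 and ZC3HAV1 lie between 36.0 and 135 TPM in every library.

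APOBEC3C encodes a deaminase with a single catalytic domain that restricts simian immunodeficiency virus and LINE-1 elements. Its level was 22.6 TPM in CHLA 02 (413 reads), 0 TPM in both CHLA 04 libraries (0 reads), 0.109 TPM in CHLA 05 (2 reads), and 63.9 and 66.6 TPM in the CHLA 06 libraries (1367 and 1554 reads). The CHLA 06 mean was 65.2 ± 1.88 TPM (SD, n = 2 technical replicates), above every other library. The normalised read count, in reads per 1000000 transcript reads of a line, was at least 685-fold higher in CHLA 06 and at least 233-fold higher in CHLA 02 than in CHLA 04, whose pooled 27626640 reads held none. Such bounds set the line without reads at 3 reads, or a normalised read count of 0.109 in CHLA 04 and 0.183 in CHLA 05. Against the 2 reads of CHLA 05, the ratio was 207 (95% exact interval 57.0 to 1716) for CHLA 02 and 609 (169 to 5034) for CHLA 06. Intervals and floors cover counting error only, and reads from PCR-amplified libraries without molecular identifiers are not independent molecules. Between the lines that expressed it, APOBEC3C was 2.94-fold higher in CHLA 06 than in CHLA 02 (2.65 to 3.27).

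APOBEC3G, the deaminase with 2 domains best known for its action on HIV without Vif, stood at 18.3 TPM in CHLA 02 (218 reads) and at 22.6 and 23.4 TPM in the CHLA 06 libraries (315 and 359 reads). It had 0 reads in both CHLA 04 libraries and in CHLA 05. The normalised read count was at least 123-fold higher in CHLA 02 and at least 158-fold higher in CHLA 06 than in CHLA 04, and at least 72.9-fold and 93.7-fold higher than in CHLA 05. By the same measure, CHLA 06 exceeded CHLA 02 by 1.29-fold (1.102 to 1.505).

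APOBEC3F acts on retroviral cDNA in other sequence contexts than APOBEC3G. It stood at 15.03 TPM in CHLA 02 (232 reads), 0 TPM in both CHLA 04 libraries, 0.0569 TPM in CHLA 05 (1 read), and 26.5 and 22.8 TPM in the CHLA 06 libraries (422 and 467 reads). Both CHLA 06 libraries were above CHLA 02, with a ratio of normalised read counts of 1.59 (1.38 to 1.85). The bound against CHLA 04 was at least 131-fold for CHLA 02 and at least 208-fold for CHLA 06.

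APOBEC3D, also a deaminase with a pair of domains, had 19.3 TPM in CHLA 02 (256 reads), 0 reads in both CHLA 04 libraries and in CHLA 05, and 17.8 and 19.9 TPM in the CHLA 06 libraries (252 and 327 reads). CHLA 02 lay between the technical replicates of CHLA 06, and the ratio of normalised read counts was 1.06 (0.914 to 1.23). The normalised read count was at least 85.6-fold higher in CHLA 02 and at least 80.5-fold higher in CHLA 06 than in CHLA 05.

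APOBEC3B, a nuclear deaminase studied as a source of mutations in tumors, had 19.9 TPM in CHLA 02 (200 reads), 2.63 and 5.67 TPM in the CHLA 04 libraries (16 and 60 reads), 0 reads in CHLA 05, and 23.7 and 34.5 TPM in the CHLA 06 libraries (272 and 438 reads). Among the APOBEC3 genes only APOBEC3B had reads in CHLA 04. The technical replicates of CHLA 04 were 2.15-fold apart and averaged 4.15 ± 2.15 TPM (SD, n = 2). Both lay below every CHLA 02 and CHLA 06 library, and in normalised read count CHLA 02 was 4.45-fold (3.40 to 5.87) and CHLA 06 6.57-fold (5.18 to 8.44) higher than CHLA 04. CHLA 04 in turn was at least 15.03-fold higher than CHLA 05. CHLA 06 exceeded CHLA 02 by 1.48-fold (1.26 to 1.74), a difference smaller than the 2-fold limit used here.

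APOBEC3A, a deaminase with a single domain that is known from myeloid cells, had 0 reads in every library and is listed at 0 TPM. APOBEC3H, the only family member with a zinc-coordinating domain of the third type, had 2 reads in CHLA 06 replicate 2 (0.230 TPM) and 0 reads elsewhere. Neither passed the filter on low values, and no fold is given for them. The related genes APOBEC1, APOBEC2 and APOBEC4 were as low. None of these 3 passed the filter, and their summed TPM was at most 0.168 in any library.

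Calls were counted among 16343 genes that passed the filter, with 8 of the 10 genes among them. A gene was called where line means were at least 2-fold apart on log2(TPM + 0.5). Between CHLA 02 and CHLA 04, 5 of the 8 were called against 25.3% of all genes tested, and all 5 (the APOBEC3 genes) were higher in CHLA 02. Between CHLA 04 and CHLA 06, the same 5 genes were called, all higher in CHLA 06, against 39.6%. CHLA 05 differed from CHLA 02 in 7 of the 8 (28%) and from CHLA 06 in 6 (34%). In both, the 5 APOBEC3 genes were lower in CHLA 05 and SAMHD1 was higher, and TRIM5 was also lower in CHLA 05 than in CHLA 02. Between CHLA 02 and CHLA 06, 1 of the 8 (APOBEC3C) was called against 15.3%. Between CHLA 04 and CHLA 05, 3 were called against 24.8%, with APOBEC3B and TRIM5 higher in CHLA 04 and SAMHD1 higher in CHLA 05. These comparisons share lines and are not independent of each other. APOBEC3C, D, F and G passed the filter only through CHLA 02 and CHLA 06. Their calls against CHLA 04 and CHLA 05 rest on the same high values.

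The median log2 difference over the 8 genes was 3.54 between CHLA 02 and CHLA 04 and -0.30 between CHLA 02 and CHLA 06. Over all genes tested it was -0.16 and 0.04, respectively. Between CHLA 04 and CHLA 06 the median of all genes tested was 0.24, against -3.97 for the 8 genes. Over the 4 line means, 7 of the 8 (all but ZC3HAV1) spanned at least 2-fold, against 55.2% of all genes tested. The median range of the 8 genes on the log2 scale was 5.43, against 1.12. These medians rest mostly on the APOBEC3 genes, which are 5 of the 8. As stated above, APOBEC3C, D, F and G passed the filter only through CHLA 02 and CHLA 06, so the medians are no separate support. Between the CHLA 06 technical replicates none of the 8 was called, against 2.91% of all genes. Between those of CHLA 04 none was called against 9.2%, but APOBEC3C, D, F and G had 0 reads in both and could not be called, and APOBEC3B was 2.15-fold apart in TPM and 0.98 apart on log2(TPM + 0.5).

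A stricter description asked for at least 10 TPM in every library of a line and at most 0.2 TPM in every library of another. This held for 5 of the 8 genes (APOBEC3B, C, D, F and G) and for 3.24% of all genes tested. It restates the values given above and is no separate support for them. The 5 genes are neighbours with near-identical stretches, so they are not independent observations. How the counting assigned reads that match several APOBEC3 genes is not given in the sources used here, and the split of reads among them is uncertain. Annotated transcripts overlap as well. APOBEC3C and APOBEC3D share exon sequence, an APOBEC3A transcript runs to the end of APOBEC3B, and a read-through transcript assigned to APOBEC3G starts in APOBEC3F and held 1.30% to 2.12% of APOBEC3G TPM in the libraries with reads. APOBEC3C, D, F and G together had 0 reads in CHLA 04 and 3 reads in CHLA 05.

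Genes on both sides of the cluster were read in every library. CBX6 and CBX7, which encode chromobox proteins of Polycomb complexes and were chosen here after their values were seen, lie 80.4 kb before and 16.1 kb after the cluster. CBX6 had 202 TPM in CHLA 02, 162 and 111 TPM in the CHLA 04 libraries, 107 TPM in CHLA 05, and 229 and 204 TPM in the CHLA 06 libraries. CBX7 ranged from 7.99 TPM in CHLA 05 to 17.4 TPM in CHLA 04 replicate 1. The line means of CBX6 had the same order as the summed APOBEC3 genes. They were 216 TPM in CHLA 06, 202 TPM in CHLA 02, 137 TPM in CHLA 04 and 107 TPM in CHLA 05. CBX7 was lowest in CHLA 05 too. On the log2 scale the line means spanned 1.01 for CBX6 and 0.84 for CBX7. For APOBEC3B, C, D, F and G they spanned 5.31 to 7.04.

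**Figure D2:**
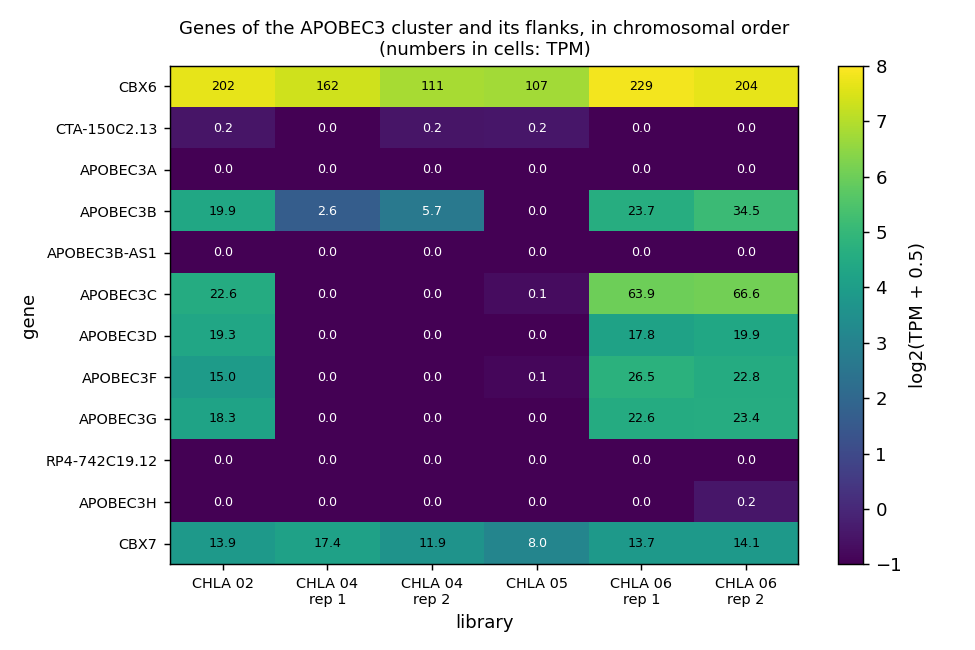
Genes within 100 kb of the APOBEC3 cluster, in chromosomal order from top to bottom, in the 6 libraries (columns), including unexpressed neighbours. Colour is log2(TPM + 0.5) and the number in a cell is TPM. The CHLA 04 and CHLA 05 columns are at or near 0 from APOBEC3C to APOBEC3H, while CBX6 and CBX7 are read in all columns.

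Of the leukocyte markers, CD68 moved with the APOBEC3 genes, with 6.36 TPM in CHLA 02, 0.897 and 0.236 TPM in CHLA 04, 0.344 TPM in CHLA 05, and 6.34 and 22.6 TPM in CHLA 06. The 11 markers summed to between 0.857 and 23.0 TPM per library, most of it CD68 in CHLA 02 and CHLA 06. The markers PTPRC, CD3E, CD3D, MS4A1, NKG7, CSF1R and AIF1 were each at 0 or at most 0.224 TPM in all 6 libraries. Of the rest of the list, CD14 reached at most 0.360 TPM (CHLA 05). LYZ reached 0.422 TPM (CHLA 06 replicate 1) and ITGAM 0.140 TPM (CHLA 06 replicate 2). The part of CD68-expressing cells in the result was not tested.

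Reads on LTR elements inside the cluster came from a separate mapping of the same libraries, and they showed the same lines. The 68 elements listed within the span of the 7 genes had 430 reads in CHLA 02, 2 and 0 reads in CHLA 04, 2 reads in CHLA 05, and 1001 and 1136 reads in CHLA 06. Per 100000 LTR reads of a library, these were 92.3 in CHLA 02 and 223 and 236 in the CHLA 06 libraries, against at most 0.563 in the CHLA 04 libraries and 0.483 in CHLA 05. Most of these reads fell on elements that overlap exons, with 324 of 430 in CHLA 02. They can be the same reads that were counted on the genes, and so they are no independent measurement.

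A MER65C element in the last exon of APOBEC3C (chr22:39019077-39019516) took the most reads. It had 186 reads in CHLA 02, 627 and 700 reads in CHLA 06, and at most 1 read in each library of CHLA 04 and CHLA 05. MER65C is an LTR of an old endogenous retrovirus of primates. In an intron or between the genes, an LTR2C element (chr22:39055608-39056013) had 39 reads in CHLA 02, 0 in CHLA 04 and CHLA 05, and 78 and 69 in CHLA 06. In the flanks of 100 kb on each side, LTR elements together had at most 15 reads per flank in any library. These elements were chosen after their values were seen.

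**Figure D3:**
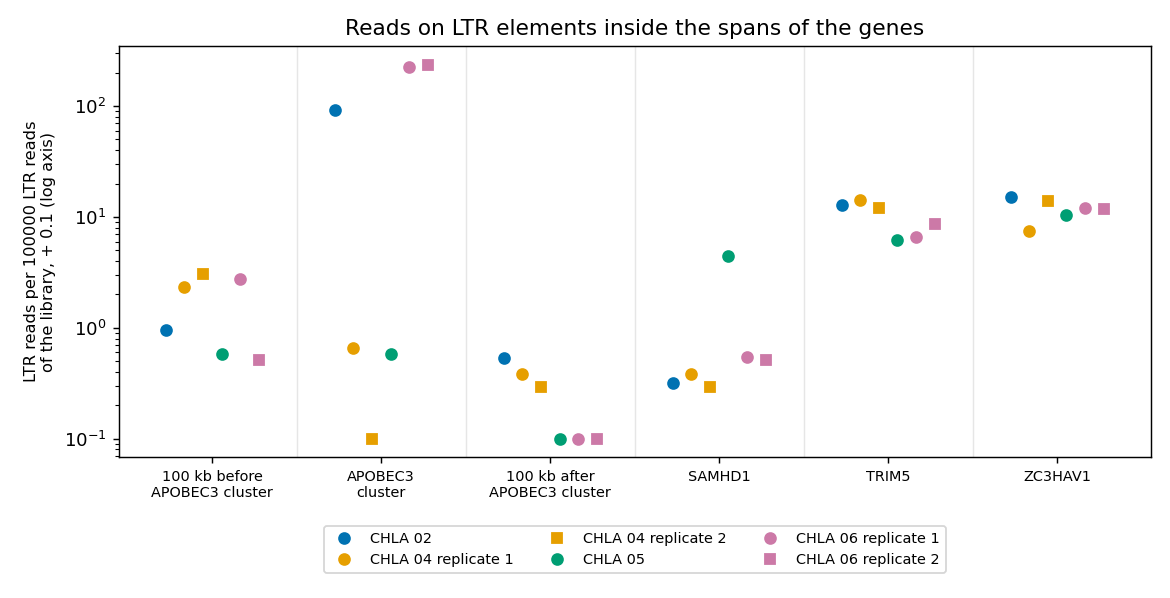
Reads on LTR elements in the span of each gene or cluster and in the flanks of the APOBEC3 cluster, per 100000 LTR reads of the library, plotted + 0.1 on a log axis with 1 point per library. The APOBEC3 cluster separates CHLA 02 and CHLA 06 (92.3 to 236) from CHLA 04 and CHLA 05 (0.563 or less), and the SAMHD1 span has its highest value, 4.35, in CHLA 05.

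By transcript, APOBEC3C RNA was almost entirely the coding form of 190 residues, with 94.99% to 96.9% of the TPM in CHLA 02 and CHLA 06. APOBEC3G was spread over a coding form of 384 residues (63.3% to 69.1%) and transcripts with a retained intron (26.3% to 33.8%). The main APOBEC3F form, of 373 residues, held 68.9% to 85.5% of its TPM in these lines. APOBEC3B was split over 3 coding forms and 1 transcript subject to nonsense-mediated decay. The form of 382 residues, the full-length protein, held 52.0% in CHLA 02, 23.5% and 25.0% in the CHLA 04 libraries, and 8.91% and 33.6% in the CHLA 06 libraries, so its share also varied between technical replicates.

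SAMHD1 had another pattern, with 1 line far above the others. Its level was 14.1 TPM in CHLA 02 (450 reads), 14.7 and 18.8 TPM in the CHLA 04 libraries (290 and 622 reads), 98.8 TPM in CHLA 05 (3059 reads), and 14.0 and 14.2 TPM in the CHLA 06 libraries (520 and 582 reads). CHLA 05 was above every other library, and the other 5 libraries spanned 14.0 to 18.8 TPM. In normalised read count, CHLA 05 was higher than CHLA 02 by 6.78-fold (95% exact interval 6.136 to 7.498), than CHLA 04 by 5.65-fold (5.25 to 6.09) and than CHLA 06 by 6.65-fold (6.21 to 7.13). CHLA 02 and CHLA 06 could not be told apart by counting error (1.02, 0.912 to 1.14). Among genes with reads, SAMHD1 stood at the 88.9th percentile of TPM in CHLA 05 and between the 48.4th and the 54.4th in the other libraries. CHLA 05 thus combined the highest SAMHD1 level with the lowest summed APOBEC3 level.

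At least 96.9% of SAMHD1 TPM in each library came from the coding transcript of 591 residues. LTR elements inside the SAMHD1 gene, all in introns, had 18 reads in CHLA 05 and 1 or 2 reads in each of the other libraries. SAMHD1 activity is held down in dividing cells by phosphorylation through CDK1 or CDK2 with cyclin A2, and its substrates are made by ribonucleotide reductase and salvage kinases. All 10 genes of this control and supply list passed the filter, and 3 of them spanned at least 2-fold over the line means, against 55.2% of all genes tested. TYMS, thymidylate synthase, had the highest mean level of the list (339 TPM) and was at 205 TPM in CHLA 02, 241 and 433 TPM in CHLA 04, 505 TPM in CHLA 05, and 250.4 and 363 TPM in CHLA 06. RRM2B, a ribonucleotide reductase subunit made outside S phase, had the widest range of the list (1.35 on the log2 scale) and was highest in CHLA 05, at 78.2 TPM against 27.4 to 72.5 TPM in the other libraries. DCK, a salvage kinase, had the lowest mean, 33.9 TPM. In 6 of the 10 genes CHLA 05 had the highest line mean and in 4 CHLA 04 had it. The technical replicates were far apart for several genes of this list, such as RRM2 with 129.9 and 400.5 TPM in the CHLA 06 libraries, a gene named after its values were seen.

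TRIM5 was read in all lines, at 84.2 TPM in CHLA 02 (1305 reads), 135 and 99.3 TPM in the CHLA 04 libraries (993 and 1488 reads), 36.0 TPM in CHLA 05 (492 reads), and 65.5 and 52.5 TPM in the CHLA 06 libraries (1167 and 1038 reads). The libraries of the 4 lines did not overlap, in the order CHLA 04, CHLA 02, CHLA 06 and CHLA 05. CHLA 04 averaged 117 ± 25.5 TPM and CHLA 06 59.0 ± 9.17 TPM (SD, n = 2 technical replicates each). The lower CHLA 04 replicate was nearer to CHLA 02 than to the other CHLA 04 replicate. The direction between these lines turned with the measure, as the log2 difference of CHLA 02 from CHLA 04 was -0.48 for the gene and 0.46 for its most abundant transcript. On normalised read counts, which are not scaled by transcript length, CHLA 05 was lower than CHLA 02 by 2.66-fold (2.40 to 2.96), than CHLA 04 by 2.99-fold (2.71 to 3.30) and than CHLA 06 by 1.87-fold (1.69 to 2.07). CHLA 05 thus had the lowest level of TRIM5 and the highest of SAMHD1.

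TRIM5 RNA was divided among 11 transcripts, all with reads. The transcript that encodes TRIM5α, the form of 493 residues with the SPRY domain that contacts the capsid, held 3.70% of TRIM5 TPM in CHLA 05, 4.87% in CHLA 02, 9.58% and 12.7% in the CHLA 04 libraries and 10.4% and 17.2% in the CHLA 06 libraries. Its level was 1.33 TPM in CHLA 05, 4.10 TPM in CHLA 02, 6.78 and 9.04 TPM in the CHLA 06 libraries and 13.0 and 12.6 TPM in the CHLA 04 libraries. CHLA 05 was the lowest and CHLA 04 the highest for this form too. The form of 347 residues (TRIM5γ), which lacks the SPRY domain, held 12.8% to 40.6%, and a transcript with a retained intron held 8.85% to 34.2%. The CHLA 04 replicates had TRIM5γ shares of 12.8% and 32.1%, so the split among transcripts varied between libraries of 1 line.

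TRIM5 lies among related TRIM genes on chromosome 11, and 2 annotated TRIM5 transcripts reach far beyond the others, so the span of the gene was 275063 bp. The 62 LTR elements within it had 25 reads in CHLA 05 and 29 and 41 reads in the CHLA 06 libraries. They had 59 reads in CHLA 02, and 50 and 61 reads in the CHLA 04 libraries. Most of these reads fell on LTR16E1 (154 over the 6 libraries) and PABL_A (79), which lie within the shorter transcripts and were named after their values were seen. Some other elements lie beyond those transcripts, and whether their reads came from TRIM5 was not tested. TRIM5 acts as an E3 ubiquitin ligase with UBE2N and UBE2V2 and signals through TAK1 (MAP3K7) and TAB2, and the capsid it binds also recruits cyclophilin A (PPIA). All 6 genes of this list passed the filter, and 1 of them (TAB2) spanned at least 2-fold, against 55.2% of all genes tested. TAB2 was read with 52.4 TPM in CHLA 02, 21.7 and 35.5 TPM in CHLA 04, 38.6 TPM in CHLA 05, and 90.5 and 92.7 TPM in CHLA 06. TAB2 was high in the CHLA 06 libraries and low in CHLA 04, where TRIM5 was high. PPIA had the highest mean (690 TPM) and UBE2V2 the lowest (39.8 TPM).

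ZC3HAV1 varied least of the 8 genes. Its level was 70.5 TPM in CHLA 02 (3093 reads), 45.2 and 69.6 TPM in the CHLA 04 libraries (1219 and 3253 reads), 47.5 TPM in CHLA 05 (2054 reads), and 77.2 and 94.2 TPM in the CHLA 06 libraries (3906 and 5361 reads). The CHLA 04 replicates lay on both sides of CHLA 05 and just below CHLA 02 at the upper end, with a mean of 57.4 ± 17.3 TPM (SD, n = 2), and only the CHLA 06 libraries (85.7 ± 12.0 TPM, SD, n = 2) lay above all others. The line means spanned 0.84 on the log2 scale, and of the 8 genes ZC3HAV1 alone was below the 2-fold limit in every comparison. Between CHLA 05 and CHLA 06 this depended on the scaling, since the log2 difference was -0.84 as deposited, -1.02 after quantile normalization and -1.01 after median ratio scaling. By counting error alone CHLA 06 was 1.88-fold (1.79 to 1.98) above CHLA 05, but the CHLA 04 technical replicates were themselves 1.54-fold apart.

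ZAP is made in a long form with a catalytically inactive PARP-like domain and in a short form without it. The transcript of the long form (902 residues) held 78.0% to 88.5% of ZC3HAV1 TPM in the 6 libraries, that of an extended form (1024 residues) 6.79% to 12.1%, and that of the short form (699 residues) 3.60% to 9.31%. The long form led in every library, and its lowest and highest share were both from CHLA 04. ZAP works with TRIM25, KHNYN and further RNA decay factors. All 6 of these cofactors passed the filter, and 1 (KHNYN, a nuclease) spanned at least 2-fold, against 55.2% of all genes tested. KHNYN was read with 35.6 TPM in CHLA 02, 25.4 and 16.9 TPM in CHLA 04, 42.3 TPM in CHLA 05, and 45.8 and 40.3 TPM in CHLA 06. DHX30, a helicase, had the highest mean (98.6 TPM) and EXOSC5, an exosome subunit, the lowest (12.8 TPM).

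**Figure D4:**
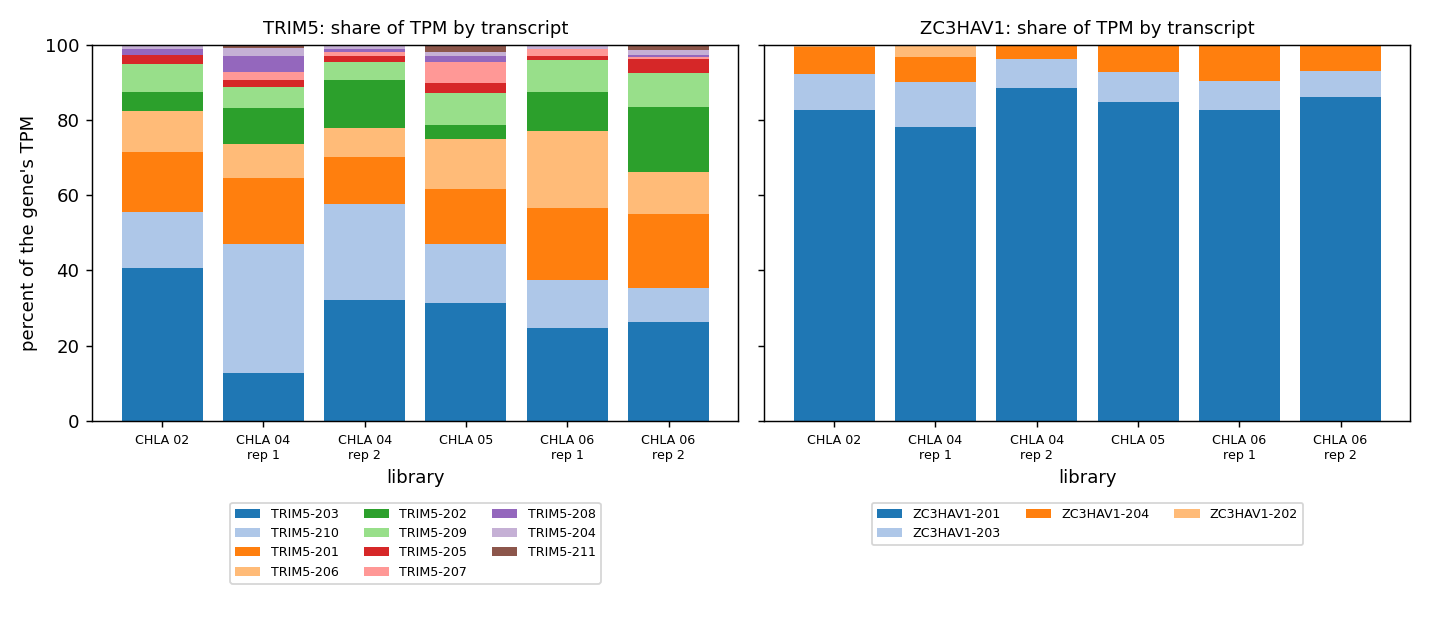
Share of TRIM5 (left) and ZC3HAV1 (right) TPM by annotated transcript, in percent, as 1 stacked bar per library. The long form of ZC3HAV1 takes 78.0% to 88.5% of each bar, whereas the largest TRIM5 segment changes between libraries, also between the technical replicates of CHLA 04.

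Other restriction factors differed among themselves in the line of their highest level. Of 17 genes listed, 16 were matched by symbol and 13 passed the filter, and 11 of these spanned at least 2-fold over the line means, against the same 55.2%. IFITM3, which blocks fusion of viral membranes, had the highest mean of the list (333 TPM), with 299 TPM in CHLA 02, 585 and 761 TPM in CHLA 04, 317 TPM in CHLA 05, and 47.2 and 38.4 TPM in CHLA 06. BST2 (tetherin), which holds budding virions at the cell surface, had the widest range (8.72 on the log2 scale), with 160 TPM in CHLA 02, 474 and 358 TPM in CHLA 04, 49.9 TPM in CHLA 05, and 0.408 and 0.574 TPM in CHLA 06. Both were lowest in CHLA 06, where the APOBEC3 sum was highest. TRIM6 had 0 reads in every library, the lowest mean of the list. TRIM22 and TRIM34, also on chromosome 11, differed from TRIM5 and from each other, and were named after their values were seen. TRIM22 had 18.8 TPM in CHLA 02, 67.3 and 52.5 TPM in CHLA 04, and 0.5996 to 1.101 TPM in CHLA 05 and CHLA 06. TRIM34 had 5.74 TPM in CHLA 02 and 8.05 and 8.06 TPM in CHLA 06. In CHLA 04 it had 0.253 and 0 TPM, and in CHLA 05 0.398 TPM. The highest line mean was in CHLA 04 for 5 of the 13 genes, in CHLA 06 for 4, and in CHLA 02 and CHLA 05 for 2 each.

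All 15 interferon-stimulated genes listed passed the filter, and 14 of them spanned at least 2-fold over the line means, against 55.2% of all genes tested. CHLA 04 had the highest mean in 10 and CHLA 02 in 5, and none was highest in CHLA 05 or CHLA 06. IFI6 had the highest mean (271 TPM), with 324 TPM in CHLA 02, 693 and 470.0 TPM in CHLA 04, 126 TPM in CHLA 05, and 60.7 and 42.7 TPM in CHLA 06. IRF7, a transcription factor of the interferon response, had the widest range (5.11 on the log2 scale) and was at 12.8 TPM in CHLA 02, 15.2 and 18.3 TPM in CHLA 04, 0 TPM in CHLA 05, and 7.74 and 6.96 TPM in CHLA 06. OAS1, which makes the activator of RNase L, had the lowest mean (3.57 TPM). CHLA 04, with the highest levels for most of these genes, had reads for APOBEC3B alone among the 7 APOBEC3 genes. CHLA 06, with the highest APOBEC3 sum, had the highest mean in none of the 15. The median over the 15 genes was 43.5 TPM in CHLA 02, 54.5 TPM in CHLA 04 and 26.0 TPM in CHLA 06. It was lowest, at 8.94 TPM, in CHLA 05, which also had the lowest APOBEC3 sum. Whether interferon had a part in the APOBEC3 levels was not tested.

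**Figure D5:**
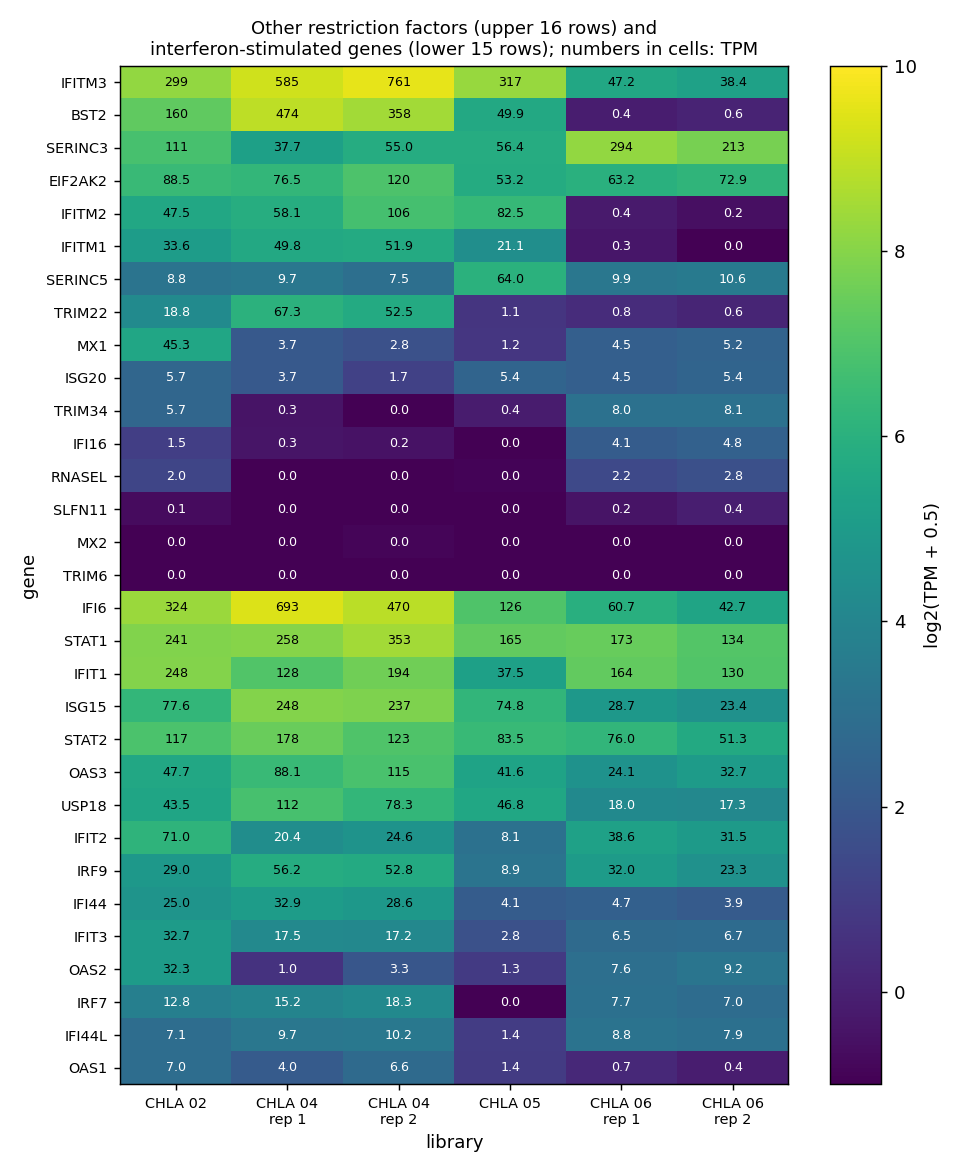
Other restriction factors (upper 16 rows) and interferon-stimulated genes (lower 15 rows), each block in order of mean TPM, in the 6 libraries (columns). Colour is log2(TPM + 0.5) and the number in a cell is TPM. BST2, and IFITM1 and IFITM2 (named after their values were seen), are at 0.574 TPM or lower in CHLA 06. Of the 13 restriction factors that passed the filter, 4 have their highest line mean in CHLA 06. All 15 interferon-stimulated genes have their highest line mean in CHLA 02 or CHLA 04.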

How the data were processed

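Total RNA of 4 AT/RT cell lines was measured in 6 libraries. Reads were trimmed (Trimmomatic) and mapped to GRCh38 (CLCbio Genomics Workbench, RNA-Seq tool, default parameters) by the authors, who deposited TPM per transcript (Ensembl release 82). From a separate mapping to RepeatMasker LTR features they deposited TPM scaled over LTR elements alone. Versions are not given in the sources used here. TPM values multiplied by feature length fell on whole multiples of a step (within 0.05) for at least 99.6% of values above 0 in each file. That step was taken as 1 read, and the recovery was tested on simulated data. The depth was 10265899 to 20520229 reads per library.

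Gene TPM was the sum over a gene identifier, and technical replicates were averaged. Lines were compared on log2(TPM + 0.5) among 16343 genes with TPM of at least 1 in at least 1 library. Adding 0.5 understates differences of low genes, which are therefore also given as ratios of reads per 1000000 transcript reads, with exact binomial 95% intervals. No test was made, since each line was 1 biological sample. Transcript classes and protein lengths came from GENCODE 44 by transcript identifier (49 of 51 found). The 10 genes and the 10 gene lists were chosen with earlier results of these data known. All 10 genes are named. Of each list the genes with the highest mean, the lowest mean and the widest log2 range over the lines are named, as well as genes stated as chosen afterwards. MARCH8 of the restriction factor list was not matched by symbol and was not analysed here. Of the lists, 2 further genes are not reported here. Alternatives were other pseudocounts (0.1 and 2), no filter, the most abundant transcript, quantile normalization, median ratio scaling, the maximum of technical replicates, limits of 1.5-fold and 3-fold, and leaving out each technical replicate. Python 3.11.15, pandas 2.3.3 and scipy 1.17.1 were used.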

Additional observations from a re-analysis of the deposited data

How the results depend on the processing

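Counts of the 8 genes at least 2-fold apart between lines were computed under 66 alternatives, and 63 stayed within 1.5 times the value reported. The other 3 were all between CHLA 02 and CHLA 06, where 1 gene was called (15.3% of all genes), against 3 with the most abundant transcript (17%), 2 with a limit of 1.5-fold (30%) and 0 with a limit of 3-fold (7.37%). Leaving out each technical replicate in turn gave 5 genes each time between CHLA 02 and CHLA 04, 1 between CHLA 02 and CHLA 06, 3 between CHLA 04 and CHLA 05, 5 to 6 between CHLA 04 and CHLA 06, and 6 between CHLA 05 and CHLA 06. Of 540 log2 differences of single genes under alternatives, 134 moved by more than the SD between technical replicates of the gene and 406 did not. Of those at least 2-fold apart, 0 changed sign. Of smaller ones 7 did, among them TRIM5 between CHLA 02 and CHLA 04 (-0.48, 0.46 with the most abundant transcript), ZC3HAV1 between CHLA 04 and CHLA 05 (0.27, -0.07 without CHLA 04 replicate 2) and APOBEC3D between CHLA 02 and CHLA 06 (0.04, -0.13 after quantile normalization). Between CHLA 05 and CHLA 06, quantile normalization and median ratio scaling brought the count from 6 to 7, with ZC3HAV1 added. The cause was not tested. No paired analysis was possible because each line had 1 biological sample, no test was made and the replicate numbers mark technical replicates. Depth limits what can be said of genes without reads, since 3 reads correspond to 0.0764 to 0.184 per 1000000 reads of a line. The spread between cultures was not measured.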

Other observations

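Factors that act on retroelement RNA or cDNA inside the cell were read in every line. All 9 genes of this list passed the filter on low values, and 4 spanned at least 2-fold over the line means, against 55.2% of all genes tested. DDX17, an RNA helicase, had the highest mean (526 TPM) and ranged from 412 to 584 TPM over the 6 libraries. TREX1, a DNA exonuclease that removes cytosolic cDNA, had the lowest mean, with 12.3 TPM in CHLA 02, 25.3 and 21.1 TPM in CHLA 04, 19.4 TPM in CHLA 05, and 12.9 and 13.1 TPM in CHLA 06. RNASEH2A, the catalytic subunit of ribonuclease H2, had the widest range (1.503 on the log2 scale), with 30.6 TPM in CHLA 02, 73.5 and 102 TPM in CHLA 04, 60.6 TPM in CHLA 05, and 23.7 and 42.5 TPM in CHLA 06. The highest line mean was in CHLA 04 for 6 of the 9 genes.

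Uracil left by APOBEC3 deamination in DNA is removed by UNG and further enzymes of base excision repair. All 6 genes of this list passed the filter, and 1 spanned at least 2-fold, against 55.2% of all genes tested. This was UNG, which had the widest range (1.15 on the log2 scale), with 41.3 TPM in CHLA 02, 70.5 and 70.7 TPM in CHLA 04, 82.5 TPM in CHLA 05, and 29.7 and 44.2 TPM in CHLA 06. UNG was lower in CHLA 02 and CHLA 06, in which APOBEC3C, D, F and G were read, than in CHLA 04 and CHLA 05. Genes of other lists had the same split, among them TREX1 above and RRM1, which was named after its values were seen. Line means of RRM1 were 108 TPM in CHLA 02, 205 TPM in CHLA 04, 200 TPM in CHLA 05 and 110 TPM in CHLA 06. The split was thus not particular to UNG, and a link to the APOBEC3 genes was not tested. APEX1, the abasic site endonuclease, had the highest mean (288 TPM), and SMUG1, a further uracil glycosylase, the lowest (29.3 TPM). No test between lines was made.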
